A study of Mus musculus with 6 samples.

Results

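The genes described here are 25 genes that were read in ID8 cells carrying Trp53 and almost not at all in ID8 cells lacking it. They were selected on these same counts: a gene was taken when its raw counts summed to at most 3 over the 3 Trp53_KO libraries and to at least 60 over the 3 Trp53_WT libraries. Of the 41327 genes in the count table, 27 met both limits. Grem1, Bnc1 and genes whose symbols begin with Col, Sema, Hox, Pcdh, Wnt or Fox were set aside by name, which took out Grem1 and Col11a1 and left 25. Because the counts of this comparison chose the genes, their difference between the genotypes is given as a description and carries no test.

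ID8 is a line derived from the ovarian surface epithelium of C57BL/6 mice, and its cells are labelled epithelial and immortalized. The 3 Trp53_KO libraries come from cells of genotype Trp53-/-, and the 3 Trp53_WT libraries from Trp53+/+ cells. Both groups were grown asynchronously and received no treatment. Stranded libraries were made from total RNA, and reads were counted per gene. The labels do not say how Trp53 was disrupted or whether the knockout is 1 clone. Nor do they say whether the 3 libraries of a group came from separate cultures, so the spread behind each p-value may be technical.

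The protein p53 is a transcription factor that is stabilised by DNA damage and other stresses. It binds paired copies of a short response element and raises transcription of genes for cell cycle arrest, DNA repair and apoptosis, while other genes change through the products of its targets. Cells of the ovarian surface epithelium are related to the mesothelium, and loss of p53 function is common in high-grade serous ovarian cancer.

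Depth was similar across libraries, with between 16597529 and 19574772 counts in the Trp53_KO libraries and between 15319956 and 19954170 in the Trp53_WT libraries. Trp53 itself was read at 29.6, 25.5 and 25.3 CPM (counts scaled to a common library size by TMM) in Trp53_KO libraries, against 110, 97.2 and 105 CPM in Trp53_WT libraries. Its log2 fold change was -1.96 (SE 0.09, adjusted p = 2.7e-07, edgeR's quasi-likelihood test with Benjamini-Hochberg adjustment), and the groups did not overlap. Transcripts of the gene thus remained in the libraries labelled Trp53_KO. Over all 13651 genes tested, 16.1% were lower and 14.1% higher in Trp53_KO at an adjusted p under 0.05, 30.3% in all. Trp53_WT replicate 1 stood apart from the other replicates of its group, with a chi-square per degree of freedom of 27.5 and 26.9 against them, where those 2 differed by 2.01 and the Trp53_KO replicates by 4.27 to 8.81. Markers of the ovarian surface were mixed. Of the 24 listed, Krt8 and Msln were among those abundant in both groups: Krt8, a keratin of simple epithelia, averaged 492 ± 29 CPM in Trp53_KO and 610 ± 22 CPM in Trp53_WT, and Msln, a mesothelial surface protein, 1170 ± 45 CPM in Trp53_KO and 1400 ± 33 CPM in Trp53_WT (SD, n = 3 each). Others were read mainly in Trp53_KO, such as Lrrn4 with 65.5 ± 0.81 CPM in Trp53_KO and 0.234 ± 0.094 CPM in Trp53_WT and Amhr2 with 39.2 ± 5.1 CPM in Trp53_KO and 0.483 ± 0.19 CPM in Trp53_WT, and 4, Calb2, Lgr5, Aldh1a2 and Tcf21, had no count in any library. Epcam, a surface protein of many epithelia, had no count in any library, and Cdh1, the epithelial cadherin, averaged 0.769 ± 0.13 CPM in Trp53_KO and 0.685 ± 0.17 CPM in Trp53_WT.

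Over the 25 genes together, the Trp53_KO libraries held 5, 3 and 8 counts, and the Trp53_WT libraries 1441, 1917 and 1715 counts. The highest count of any of them in a Trp53_KO library was 2 and the lowest in a Trp53_WT library was 13. The rule brings a separation of the group sums with it, though it sets no lower limit for a single Trp53_WT library. In all, 16 had no count in any Trp53_KO library, 5 had 1 count in the 3 libraries together, 1 had 2 and 3 had 3. A gene at 0 over the group could have been present at up to 0.0545 CPM, the level of 3 counts over the 3 Trp53_KO libraries. Such limits, and the intervals given for ratios below, cover counting error only. In RNA from whole cultures, fewer cells that express a gene and less RNA per cell cannot be told apart. The 27 genes are 0.22% of the 12284 genes with at least 60 counts over Trp53_WT. Turned round, with at most 3 counts over Trp53_WT and at least 60 over Trp53_KO, the rule took 55 of 12275 genes, or 0.448%.

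**Figure D1:**
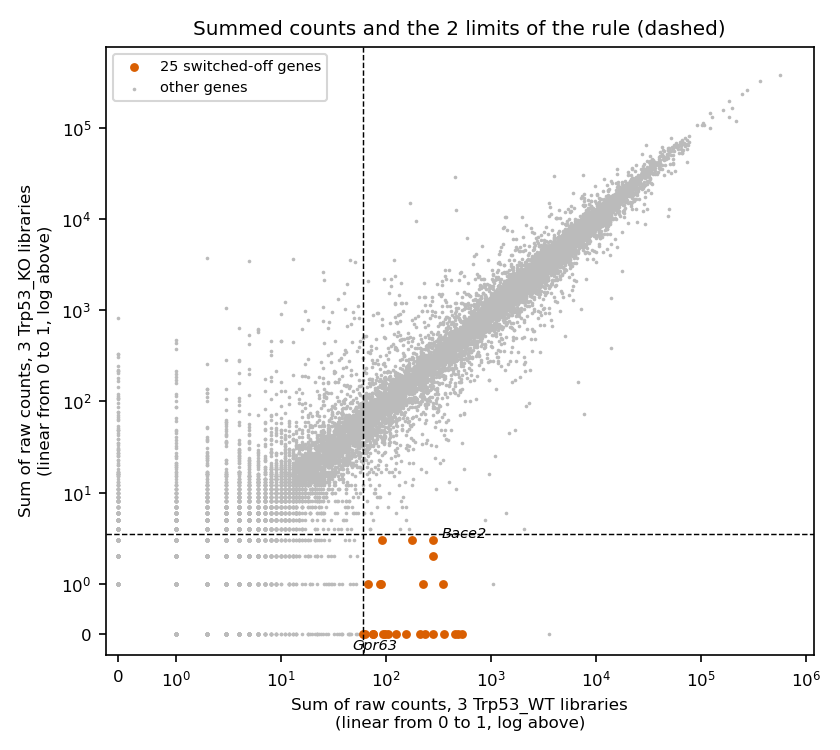
Sum of raw counts per gene over the 3 Trp53_KO libraries (vertical axis) against the sum over the 3 Trp53_WT libraries (horizontal axis), both linear from 0 to 1 and logarithmic above, with the limits of the rule dashed. The 25 genes, in orange, fill the lower right corner, with 16 of them at 0 on the vertical axis and Gpr63, labelled, at the left edge with 60 on the horizontal axis; grey points in that corner are genes left out by name.

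The promoters show how unlike each other the genes are. RefSeq promoters of build GRCm38.p6, running from 250 bases before to 50 bases after a start site, were matched for 20 of the 25 genes; Bace2, Car13, Pmaip1 and RP23-63A19.3 were among those with no entry. Printed here are the 250 bases before the start, on the strand of the gene, for 5 genes chosen to span the range. The promoters of Cyp1a1 (chr9:57697363-57697612, plus strand) and Cxcl15 (chr5:90794284-90794533, plus strand) hold the only TATA boxes near a start site, in capitals. The RefSeq start can differ from that of the gene body given below, as it does for Cyp1a1. The promoter of Gpr63 (chr4:24965804-24966053, plus strand) holds the only match to the p53 half-site, in capitals. In Lgalsl (chr11:20831109-20831358, minus strand) and Ugt2b34 (chr5:86906938-86907187, minus strand), which have the most and the fewest CpG dinucleotides for their base composition, each CpG is in capitals.
Cyp1a1: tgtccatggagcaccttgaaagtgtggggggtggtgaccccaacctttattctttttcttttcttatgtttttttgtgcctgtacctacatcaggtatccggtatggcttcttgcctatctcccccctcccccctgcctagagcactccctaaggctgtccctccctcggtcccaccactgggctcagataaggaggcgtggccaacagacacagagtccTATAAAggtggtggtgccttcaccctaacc
Cxcl15: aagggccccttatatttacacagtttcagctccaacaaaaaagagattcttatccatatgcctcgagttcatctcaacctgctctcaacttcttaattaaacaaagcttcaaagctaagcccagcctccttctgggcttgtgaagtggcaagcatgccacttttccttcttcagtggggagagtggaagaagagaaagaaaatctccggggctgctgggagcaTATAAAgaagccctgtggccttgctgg
Gpr63: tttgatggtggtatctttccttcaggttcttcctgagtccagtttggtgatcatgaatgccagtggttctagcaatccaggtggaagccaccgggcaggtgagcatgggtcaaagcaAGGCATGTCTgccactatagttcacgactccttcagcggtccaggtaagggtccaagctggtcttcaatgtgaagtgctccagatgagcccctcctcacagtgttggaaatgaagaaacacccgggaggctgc
Lgalsl: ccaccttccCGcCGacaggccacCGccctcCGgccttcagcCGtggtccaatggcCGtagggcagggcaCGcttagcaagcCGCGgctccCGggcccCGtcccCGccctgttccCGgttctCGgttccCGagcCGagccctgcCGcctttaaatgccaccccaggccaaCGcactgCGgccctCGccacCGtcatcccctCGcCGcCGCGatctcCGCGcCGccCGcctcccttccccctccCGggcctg
Ugt2b34: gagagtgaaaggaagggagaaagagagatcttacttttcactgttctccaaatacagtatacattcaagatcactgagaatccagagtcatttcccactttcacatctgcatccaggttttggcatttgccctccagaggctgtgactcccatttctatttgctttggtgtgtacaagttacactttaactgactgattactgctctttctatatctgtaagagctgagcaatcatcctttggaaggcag

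The box TATAAA began 30 bases before the start of Cyp1a1 and 27 bases before that of Cxcl15, positions at which the TATA-binding protein places the polymerase. It was also read at -121 in Ociad2 and at -237 in Myh15, on the other strand. In all, 4 of the 20 promoters held TATAAA on either strand (exact 95% interval 5.73 to 43.7%), against 8.39% of 1299 promoters of tested genes whose Trp53_WT level lay in the range of the 25. The half-site of p53, the shorter unit of its response element, was found at -133 in Gpr63 alone, in 5.0% of the 20 promoters against 6.77% of those 1299. The Sp1 box GGGCGG was found in 11 promoters (55.0%) against 56.1%, the AP-1 element TGANTCA in 1, that of Gcnt4 (5.0% against 5.77%), the TEAD element GGAATG in 1, that of Myh15 (5.0% against 13.2%), and the E-box CACGTG in 0 (against 7.62%). All motifs were searched on both strands over the whole entry, and none of these letter matches shows that a factor was bound.

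In CpG content the promoters covered nearly the whole scale. The ratio of observed to expected CpG was 0.0 in Myh15 and Ugt2b34, where no CpG occurred, 0.177 in Cxcl15 and 0.186 in Cyp1a1, and reached 0.978 in Fam234b and 1.01 in Lgalsl. A ratio of at least 0.6, which marks a CpG island only together with GC content, was reached by 10 of the 20 promoters (exact 95% interval 27.2 to 72.8%). Ociad2 was among them, at 0.728, with a GC content of only 46.0%. The share was 57.4% among the 1299 promoters of tested genes at a like level, inside that interval, and 75.1% among all 8830 tested genes with an entry, just above it. Promoters with a high and with a low CpG ratio were thus both represented among the genes that lost their reads.

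**Figure D2:**
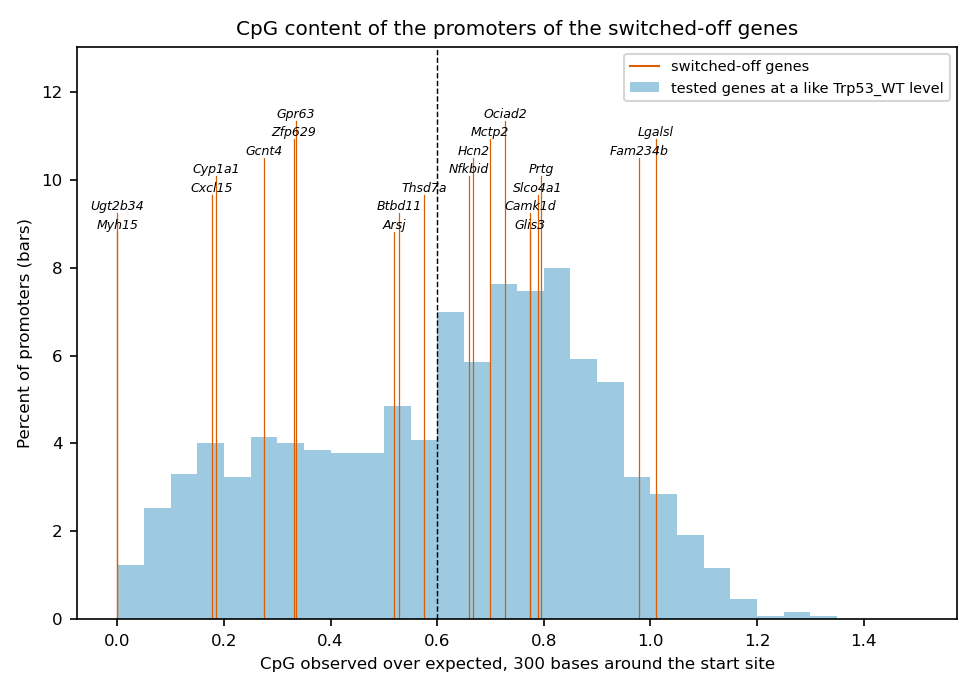
Ratio of observed to expected CpG in the promoters of 20 of the 25 genes (orange lines, named, whose heights only separate the names) over the distribution for 1299 tested genes at a like Trp53_WT level (blue bars, percent of promoters per bin). The lines run from 0.0 in Myh15 and Ugt2b34 to 1.01 in Lgalsl, with 10 on each side of the dashed mark at 0.6.

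Among the genes for secreted ligands was Cxcl15, a chemokine of the CXC family known from mouse lung as lungkine (chr5:90794534-90803067, plus strand). It had 0, 0 and 1 count in Trp53_KO, against 17, 27 and 24 counts in Trp53_WT. The ratio of Trp53_WT to Trp53_KO was 69.6 (95% interval 12.1 to 2790). The rule itself asked for such a distance between the groups. The Trp53_WT replicates had a coefficient of variation of 7.76%, which on 17 to 27 counts per library does not show a steady level.

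RP23-63A19.3, a transcript known only by its clone name, had 1, 0 and 0 counts in Trp53_KO and 35, 32 and 21 counts in Trp53_WT, a ratio of 90.1 (95% interval 15.8 to 3600). It has no position in the annotation used. The repeats that the authors annotate to it lie within the body of another member, a pair that the distances between members leave out. Among the 24 genes with a position, the shortest distance was 3.89 Mb, between Ugt2b34 and Cxcl15, and they were spread over 13 chromosomes.

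The locus of Cxcl15 held another chemokine gene that fell. Ppbp, another CXC chemokine gene, lies 24.5 kb before it and had 1 count over Trp53_KO, against 38 over Trp53_WT (log2 fold change -4.84, SE 0.68, edgeR's quasi-likelihood test, adjusted p = 0.0005). The remaining chemokine genes of the family listed were hardly read in either group: Cxcl1 had 3 counts over Trp53_KO and 4 over Trp53_WT, Cxcl5 0 and 6, and Cxcr2, a receptor for several of these ligands, 2 and 12. Markers of immune cells were also low: Ptprc, the pan-leukocyte marker, had 1 count over Trp53_KO and 9 over Trp53_WT, while Cd14, a marker of monocytes, fell to 5.09 ± 1.0 CPM in Trp53_KO, against 28.2 ± 1.5 CPM in Trp53_WT (edgeR adjusted p = 1e-06). The 15 immune markers summed to between 8.29 and 10.3 CPM in Trp53_KO libraries, against 32.0 to 35.2 CPM in Trp53_WT libraries, and 8 of the 15 had no count at all. Their part in the chemokine result was not tested.

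Genes for receptors and other membrane proteins made up the next group. Thsd7a, which encodes a large membrane protein with thrombospondin type I repeats (chr6:12311610-12749410, minus strand), had 0, 0 and 0 counts in Trp53_KO, against 121, 125 and 115 in Trp53_WT, and was at least 123-fold lower. Fam234b, a membrane protein of unassigned function, had 0, 0 and 0 counts in Trp53_KO, against 72, 114 and 97 in Trp53_WT, and was at least 96.6-fold lower. Neither gene had a read in a Trp53_KO library at this depth. Prtg, the gene for protogenin, a receptor of the DCC and neogenin family (0, 0 and 0 counts in Trp53_KO, against 22, 30 and 24 in Trp53_WT), was at least 25.9-fold lower. Gpr63, an orphan G protein-coupled receptor (0, 0 and 0 counts in Trp53_KO, against 22, 15 and 23 in Trp53_WT), and Mctp2, a membrane protein with C2 domains that bind calcium (0, 0 and 0 counts in Trp53_KO, against 26, 16 and 21 in Trp53_WT), were at least 20.5-fold and 21.5-fold lower. These last 2 stood at the lower edge of the rule, with sums of 60 and 63 over Trp53_WT, and neither met it when Trp53_WT replicate 1 was left out and the limit scaled to the libraries left.

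Relatives of these membrane proteins did not share their loss where they could be tested. Neo1, the neogenin gene, averaged 222 ± 9.5 CPM in Trp53_KO and 208 ± 13 CPM in Trp53_WT (log2 fold change 0.09, edgeR adjusted p = 0.35). Igdcc4, of the same family, fell by 0.54 on the log2 scale (edgeR adjusted p = 0.016), but only with Trp53_KO replicate 1 included (adjusted p = 0.051 without it). Mctp1 rose to 2.56 ± 0.71 CPM in Trp53_KO, against 0.837 ± 0.13 CPM in Trp53_WT (log2 fold change 1.59, edgeR adjusted p = 0.0014), the opposite direction to Mctp2. Fam234a averaged 282 ± 27 CPM in Trp53_KO and 251 ± 14 CPM in Trp53_WT and did not pass the threshold (edgeR adjusted p = 0.16), though it did without Trp53_KO replicate 2 or Trp53_WT replicate 1. Thsd7b had 2 counts over Trp53_KO and 0 over Trp53_WT, and Gpr45, the closest relative of Gpr63, had 0 in all 6 libraries.

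A channel and a transporter were among the lower-level members. Hcn2, a pacemaker channel opened by hyperpolarization and cyclic nucleotides (chr10:79716634-79736108, plus strand), had 0, 0 and 0 counts in Trp53_KO, against 28, 42 and 28 in Trp53_WT. Slco4a1, a transporter of organic anions including thyroid hormone, had 0, 0 and 0 counts in Trp53_KO, against 20, 39 and 35 in Trp53_WT. Their levels were at least 33.5-fold and 32.1-fold lower. Of the other HCN channels, Hcn3 had 17 counts over Trp53_KO and 4 over Trp53_WT, and Hcn4 had none. Among the organic anion transporters, Slco1a5 fell to 7.54 ± 1.0 CPM in Trp53_KO, against 13.5 ± 0.81 CPM in Trp53_WT (log2 fold change -0.84, edgeR adjusted p = 0.00069), and Slco2a1, the prostaglandin transporter, fell to 0.968 ± 0.23 CPM in Trp53_KO, against 3.37 ± 1.1 CPM in Trp53_WT (log2 fold change -1.75, edgeR adjusted p = 0.0013). Too low to test, Slco1c1 had 1 count over Trp53_KO and 22 over Trp53_WT, and Slco1a6 had 6 and 33.

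**Figure D3:**
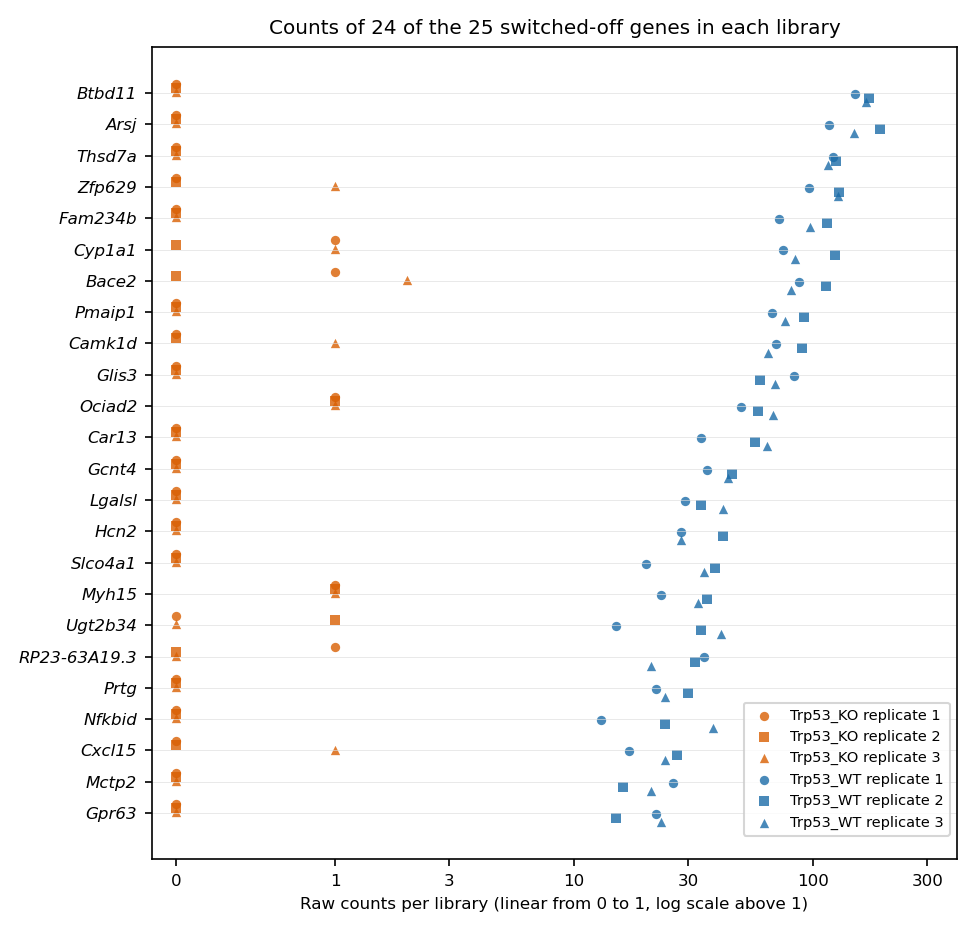
Raw counts of 24 of the 25 genes in each library (horizontal axis, linear from 0 to 1 and logarithmic above), with Trp53_KO libraries in orange and Trp53_WT libraries in blue and 1 marker shape per replicate number. Orange points lie at 0, 1 or 2 counts and blue points between 13 and 190 counts. The rule brings a separation of the group sums with it, though it sets no lower limit for a single Trp53_WT library.

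Enzymes formed the largest group, with 7 members. Arsj, an arylsulfatase (chr3:126363684-126440375, plus strand), had 0, 0 and 0 counts in Trp53_KO, against 116, 190 and 148 in Trp53_WT, and was at least 155-fold lower. Cyp1a1, a cytochrome P450 of xenobiotic metabolism and the classical target of the aryl hydrocarbon receptor (chr9:57687928-57703824, plus strand), had 1, 0 and 1 counts in Trp53_KO, against 75, 124 and 84 in Trp53_WT. Bace2, a membrane protease of the beta-secretase family (chr16:97356742-97442936, plus strand), had 1, 0 and 2 counts in Trp53_KO, against 87, 113 and 81 in Trp53_WT. A few reads were left of both, and the ratio of Trp53_WT to Trp53_KO was 145 for Cyp1a1 (95% interval 39.7 to 1200) and 95.9 for Bace2 (32.5 to 468).

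The kinase gene Camk1d, which acts downstream of calcium and calmodulin (chr2:5293457-5714515, minus strand), had 0, 0 and 1 counts in Trp53_KO, against 70, 90 and 65 in Trp53_WT, a ratio of 230 (95% interval 40.9 to 9140). Car13, a cytosolic carbonic anhydrase, had 0, 0 and 0 counts in Trp53_KO, against 34, 57 and 64 in Trp53_WT, and was at least 52.9-fold lower. Gcnt4, which builds branches on O-linked glycans, had 0, 0 and 0 counts in Trp53_KO, against 36, 46 and 44 in Trp53_WT, and was at least 43.0-fold lower. Gcnt4 had the lowest coefficient of variation of the 25 genes in Trp53_WT, 3.29%. With 36 to 46 counts per library, so low a value does not show a steady level. Ugt2b34, a glucuronosyltransferase, had 0, 1 and 0 counts in Trp53_KO, against 15, 34 and 41 in Trp53_WT, a ratio of 92.2 (95% interval 16.1 to 3680). Its Trp53_WT level in replicate 1 was 0.522 of the mean of the other replicates, the lowest such ratio among the members.

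Around Cyp1a1, the machinery of the aryl hydrocarbon receptor fell in part. Ahr, the receptor gene, fell to 71.7 ± 5.6 CPM in Trp53_KO, against 118 ± 9.1 CPM in Trp53_WT (log2 fold change -0.72, edgeR adjusted p = 0.00016). Its repressor gene Ahrr fell to 17.8 ± 1.5 CPM in Trp53_KO, against 85.4 ± 1.1 CPM in Trp53_WT (log2 fold change -2.26, edgeR adjusted p = 6.6e-08). Of the other targets, Nqo1, a quinone reductase, and Tiparp, an ADP-ribosyltransferase, fell by 1.80 and 0.58 on the log2 scale (edgeR adjusted p = 4.6e-07 and 0.0011). Cyp1b1, a related P450 gene, went the other way: it rose to 1410 ± 39 CPM in Trp53_KO, against 974 ± 100 CPM in Trp53_WT (log2 fold change 0.53, edgeR adjusted p = 0.00082). Arnt2, a relative of the receptor's partner, rose at a very low level, with 39 counts over Trp53_KO and 7 over Trp53_WT (edgeR adjusted p = 0.002), while Arnt, the usual partner of the receptor, averaged 38.3 ± 1.4 CPM in Trp53_KO and 36.9 ± 4.0 CPM in Trp53_WT (edgeR adjusted p = 0.67). Cyp1a2 had no count in any library.

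The other enzyme families were mixed. Gcnt1, a core 2 enzyme, and Gcnt2, the I-branching enzyme, fell by 0.68 and 0.33 on the log2 scale (edgeR adjusted p = 0.00011 and 0.0077), and Gcnt3 fell to 0.448 ± 0.14 CPM in Trp53_KO, against 20.2 ± 1.9 CPM in Trp53_WT (log2 fold change -5.46, edgeR adjusted p = 4e-08). All 3 tested relatives of Gcnt4 were thus lower, where 16.1% of all tested genes were. Among carbonic anhydrases, Car12 rose to 229 ± 14 CPM in Trp53_KO, against 83.1 ± 11 CPM in Trp53_WT, while the mitochondrial Car5b fell to 11.1 ± 0.56 CPM in Trp53_KO, against 30.4 ± 2.9 CPM in Trp53_WT (edgeR adjusted p = 2.6e-06 and 3.8e-06). Camk1, the tested relative of Camk1d, and its activating kinases Camkk1 and Camkk2 all rose, by 0.81, 1.31 and 0.68 on the log2 scale (edgeR adjusted p = 2.6e-05, 0.0041 and 0.00011). Over all tested genes, 14.1% rose. Bace1, the main beta-secretase of the brain, averaged 35.1 ± 1.6 CPM in Trp53_KO and 37.1 ± 3.2 CPM in Trp53_WT (edgeR adjusted p = 0.55). The tested arylsulfatases Arsa, Arsb and Arsk did not pass the threshold. Arsb had 47.0, 41.7 and 42.7 CPM in Trp53_KO, against 95.4, 49.0 and 48.3 CPM in Trp53_WT, and passed it as lower without the filter on low counts and without Trp53_WT replicate 2 or replicate 3. Among the glucuronosyltransferases, no other Ugt2 gene had more than 1 count over a group.

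Of the transcriptional regulators, Zfp629, a zinc finger gene (chr7:127607031-127615797, minus strand), had 0, 0 and 1 counts in Trp53_KO, against 96, 128 and 127 in Trp53_WT, a ratio of 359 (95% interval 64.1 to 14200). Glis3, a Krüppel-like zinc finger factor needed in pancreas and thyroid (chr19:28258851-28680077, minus strand), had 0, 0 and 0 counts in Trp53_KO, against 83, 60 and 69 in Trp53_WT. Nfkbid, an atypical nuclear member of the IkB family of NF-kB regulators (chr7:30421732-30428746, plus strand), had 0, 0 and 0 counts in Trp53_KO, against 13, 24 and 38 in Trp53_WT. Their levels were at least 72.4-fold (Glis3) and 25.6-fold (Nfkbid) lower in Trp53_KO. Nfkbid had the widest relative spread in Trp53_WT of all members, 43.9%, and fell out of the rule when Trp53_WT replicate 3 was left out.

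In the IkB family, 3 of the 5 other genes fell: Nfkbiz by 1.12, Nfkbia by 0.76 and Nfkbie by 0.49 on the log2 scale (edgeR adjusted p = 4.6e-06, 0.00022 and 0.00057). Nfkbib and Bcl3 did not pass the threshold (edgeR adjusted p = 0.60 and 0.81). Over all tested genes, 16.1% fell. All 5 relatives of Nfkbid stayed readable in Trp53_KO, and Nfkbiz, which fell most, had 28.9 ± 1.4 CPM in Trp53_KO, against 62.9 ± 3.4 CPM in Trp53_WT. Glis2, the tested relative of Glis3, averaged 145 ± 6.7 CPM in Trp53_KO and 121 ± 19 CPM in Trp53_WT (log2 fold change 0.27, edgeR adjusted p = 0.086). It passed the threshold as higher without Trp53_WT replicate 1, with the replicate number as a block, with DESeq2 and without the filter on low counts.

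Pmaip1, which encodes the BH3-only apoptosis protein NOXA, was the only one of the 25 on a list of textbook p53 targets. It had 0, 0 and 0 counts in Trp53_KO, against 67, 92 and 76 in Trp53_WT, so that its level, 4.38 ± 0.27 CPM in Trp53_WT, was at least 80.2-fold lower in Trp53_KO. The Trp53_WT replicates had a coefficient of variation of 6.09%, on 67 to 92 counts per library. Of 37 other tested genes on the list, 25 fell, 3 rose and 9 did not pass the threshold in edgeR's quasi-likelihood test. The share that fell, 67.6%, stands beside 16.1% of all tested genes, and the list's median log2 fold change was -0.44 where that of all tested genes was -0.0174. Cdkn1a, the gene for the cell cycle inhibitor p21, fell to 1.59 ± 0.12 CPM in Trp53_KO, against 41.0 ± 4.4 CPM in Trp53_WT, and Eda2r, a death receptor gene, to 9.50 ± 0.64 CPM in Trp53_KO, against 94.3 ± 4.3 CPM in Trp53_WT (edgeR adjusted p = 1.3e-08 and 1e-08). These remained readable in Trp53_KO, with 88 and 523 counts over the 3 libraries. The detoxification gene Ephx1 and the Akt inhibitor gene Phlda3 fell by 1.94 and 1.86 on the log2 scale.

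Within the BCL2 family, Pmaip1 alone met the rule. Bbc3, the gene for the p53 target PUMA, fell to 1.19 ± 0.39 CPM in Trp53_KO, against 2.53 ± 0.58 CPM in Trp53_WT (log2 fold change -1.06, edgeR adjusted p = 0.015), but not without Trp53_KO replicate 2 or replicate 3. The effector gene Bax, the BH3-only gene Bmf and the survival gene Bcl2l1 fell by 0.70, 0.73 and 0.81 on the log2 scale (edgeR adjusted p = 0.0007, 0.0007 and 2.7e-05). Bok, an effector, and Bcl2l2, a survival gene, rose by 0.40 and 0.58 (edgeR adjusted p = 0.0033 and 0.0013). The remaining 6 tested genes, Mcl1 and Bcl2 among them, did not pass the threshold. Of 12 tested relatives, 4 fell (33.3%) and 2 rose (16.7%), beside 16.1% and 14.1% of all tested genes, so that the share that rose was near the background. Without Trp53_WT replicate 1, Bad passed the threshold as lower and Bcl2l11 as higher (edgeR adjusted p = 0.011 and 0.0053).

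The last members have no common role. Btbd11, an ankyrin repeat and BTB domain protein (chr10:85386814-85660292, plus strand), had 0, 0 and 0 counts in Trp53_KO, against 150, 172 and 167 in Trp53_WT, and its level, 9.19 ± 0.83 CPM in Trp53_WT (SD, n = 3), was at least 167-fold lower in Trp53_KO. Ociad2, a protein of mitochondria and endosomes, had 1, 1 and 1 counts in Trp53_KO, against 50, 59 and 68 in Trp53_WT, a ratio of 60.4 (95% interval 20.3 to 296). Lgalsl, a galectin-like protein, had 0, 0 and 0 counts in Trp53_KO, against 29, 34 and 42 in Trp53_WT, and was at least 35.8-fold lower. Myh15, a myosin heavy chain gene, had 1, 1 and 1 counts in Trp53_KO, against 23, 36 and 33 in Trp53_WT, a ratio of 31.4 (95% interval 10.4 to 155). Residual reads of Ociad2 and Myh15 were thus present in every Trp53_KO library, 1 in each. Of their relatives, Abtb1 averaged 7.77 ± 0.46 CPM in Trp53_KO and 7.98 ± 0.28 CPM in Trp53_WT, and Ociad1 140 ± 3.2 CPM in Trp53_KO and 144 ± 20 CPM in Trp53_WT (edgeR adjusted p = 0.82 for each).

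Across 21 families or pathways of the members, 116 other genes were listed, 37 of which had no count in any library. Of the 51 that could be tested, 19 were lower (37.3%), 9 higher (17.6%) and 23 not past the threshold, beside 16.1% and 14.1% of all tested genes. Their median log2 fold change was -0.128, against -0.0174 for all tested genes. The relatives were listed by family after the values of the 25 genes were known. Some lists are closed families, while others, such as those of the CXC chemokines and the aryl hydrocarbon receptor, hold only chosen relatives, partners or targets.

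**Figure D4:**
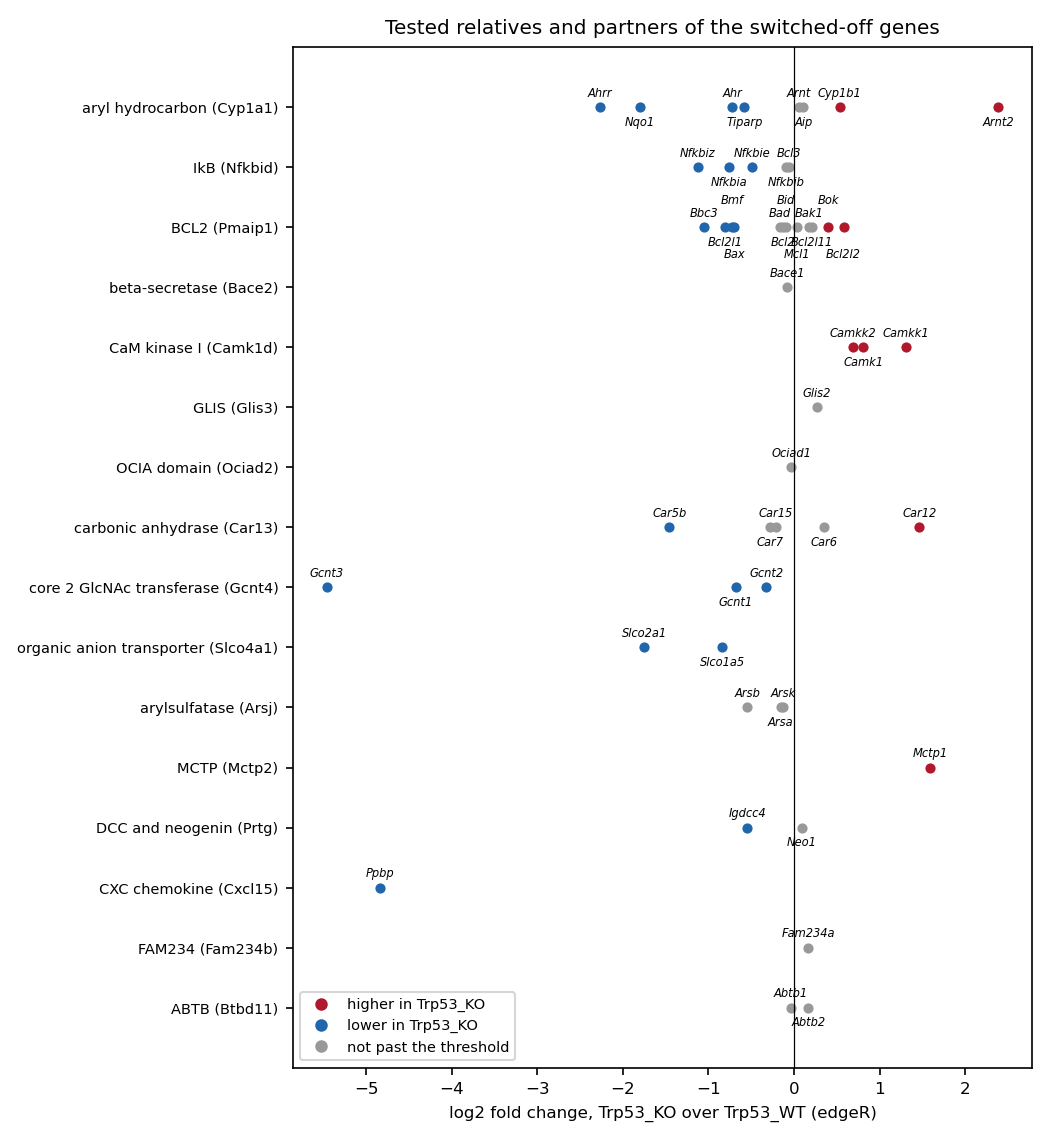
log2 fold change of Trp53_KO over Trp53_WT (edgeR) for the 51 tested relatives and partners of the genes, 1 row per family with the member in brackets. Points are genes, coloured red where higher in Trp53_KO, blue where lower and grey where not past the threshold. Gcnt3 at -5.46 and Ppbp at -4.84 lie far to the left of the rest, and several rows have points on both sides of 0.

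Levels among the 25 genes differed by less than 1 order of magnitude in Trp53_WT. The lowest mean was 1.15 CPM, in Gpr63, and Btbd11 averaged 9.19 CPM, with a median of 2.85 CPM over the 25, where the median of all tested genes was 29.8 CPM. Only 8 averaged at least 5 CPM. All 25 passed the filter on low counts, which the level in Trp53_WT decided. The coefficient of variation between Trp53_WT replicates, which the rule did not use, had a median of 15.4%, against 14.3% for the 2873 tested genes in the same range of level. It exceeded 30% in 6 members, Glis3, Ugt2b34, RP23-63A19.3, Nfkbid, Mctp2 and Gpr63. The lowest of the 3 Trp53_WT values fell in replicate 1 for 9 members, in replicate 2 for 8 and in replicate 3 for 8, and the highest in replicate 1 for 10, in replicate 2 for 9 and in replicate 3 for 6. The replicate that stood apart was thus not low or high for the set as a whole, although single genes ran from 0.522 (Ugt2b34) to 1.83 (Mctp2) times the mean of the other replicates in it.

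Some of the genes were long and others short, down to 7.0 kb in Pmaip1 and Nfkbid. The median body of the 24 with a position was 34.5 kb, against 23.2 kb for 11484 tested genes and 15.6 kb for the 1847 tested genes in the same range of level. Bodies over 100 kb were found in 7 of 24 (29.2%), among them Thsd7a at 437.8 kb, Glis3 at 421.2 kb and Camk1d at 421.1 kb, where 12.6% of tested genes and 12.2% of those at a like level were as long. All 24 are annotated as protein coding.

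Most of the genes next to the members did not pass the threshold. Within 100 kb of the body of a member lay 38 other tested genes, around 15 of the members. Of these, 6 were lower (15.8%) and 1 higher (2.63%), beside 16.1% and 14.1% of all tested genes, and 31 did not pass the threshold. Their median log2 fold change was -0.0992, against -0.0174 for all tested genes. The low share of higher neighbours depended on the window: within 500 kb, 32 of 221 were higher (14.5%) and 26 lower (11.8%). The closest of them, Polrmt, the mitochondrial RNA polymerase gene, touches Hcn2 and averaged 40.7 ± 6.5 CPM in Trp53_KO and 43.6 ± 1.9 CPM in Trp53_WT (edgeR adjusted p = 0.56). Rnf40, a ubiquitin ligase gene 2.2 kb from Zfp629, averaged 85.6 ± 2.8 CPM in Trp53_KO and 79.9 ± 3.6 CPM in Trp53_WT (edgeR adjusted p = 0.31), and Bsg, the basigin gene 4.7 kb from Hcn2, 322 ± 30 CPM in Trp53_KO and 325 ± 12 CPM in Trp53_WT (edgeR adjusted p = 0.91). Ociad1 lies 8.1 kb from Ociad2, on the other strand, and had 7733 counts over Trp53_KO and 7836 over Trp53_WT. At these loci the neighbour was read at a like level in both groups while the member had at most 3 counts over Trp53_KO.

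The neighbours that fell were scattered. Besides Ppbp beside Cxcl15, Mx2, an interferon-induced GTPase gene 92.4 kb from Bace2, had 11 counts over Trp53_KO and 78 over Trp53_WT (log2 fold change -2.83, SE 0.37, edgeR adjusted p = 0.00032). Aplp1, which encodes an amyloid precursor-like protein, lies 6.2 kb from Nfkbid on the other strand and fell to 2.23 ± 0.73 CPM in Trp53_KO, against 5.66 ± 0.19 CPM in Trp53_WT (log2 fold change -1.33, edgeR adjusted p = 0.001). Pbp2, 64.2 kb from Fam234b, fell by 0.91 and Aftph, 82.0 kb from Lgalsl, by 0.39 on the log2 scale (edgeR adjusted p = 0.00011 and 0.0018). Pbp2 resembles Pebp1 closely, so its counts may hold reads of that gene. Cdc34 by Hcn2 fell by 0.26 and Bcl7c by Zfp629 rose by 0.28 (edgeR adjusted p = 0.046 and 0.043), and both calls were fragile: 9 of 10 other settings lost the call for Cdc34 and 7 of 10 that for Bcl7c, the omission of each Trp53_KO replicate among them.

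**Figure D5:**
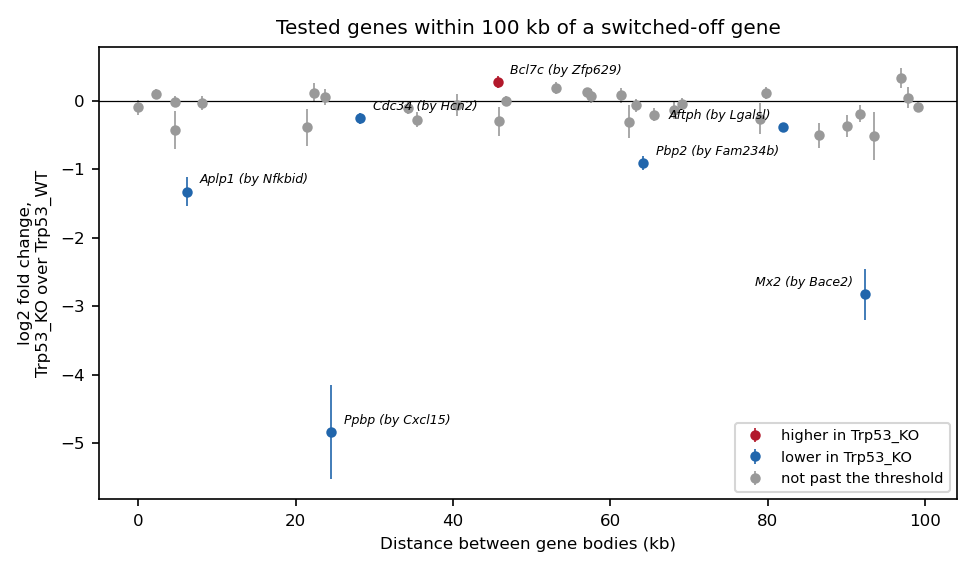
log2 fold change of Trp53_KO over Trp53_WT (vertical axis, points with SE bars, edgeR) for the 38 tested genes within 100 kb of a member, by the distance between the gene bodies in kb. Red marks genes higher in Trp53_KO, blue lower and grey not past the threshold; Ppbp at -4.84 and Mx2 at -2.83 lie lowest, and most points lie near 0.

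The authors' deposited table of repeats gives a second view of the same loci, per repeat and per read direction. It rests on the same comparison as the choice of the genes and is therefore a description. In the authors' deposited table, 261 rows were annotated to 24 of the members, Car13 having none, and 31 of them (11.9%) in 12 members were lower in Trp53_KO at an FDR under 0.05, where 0.284% of all 773731 rows were. Read along the gene, 27 of 214 rows were lower and 0 higher. Read against it, 1 of 42 was lower and 1 higher. Introns held 206 of the rows, of which 14 were lower, and 3' untranslated regions 48, of which 15 were lower. The lower rows in introns came from only 3 members, and most of them from a single member. Those in 3' untranslated regions came from 9 members.

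In Arsj, 2 of 13 rows were lower in the authors' deposited table, both in introns. In Pmaip1, 4 of 9 rows were lower, all in its 3' untranslated region. The single higher row in the authors' deposited table was MMERVK10C-int, the inner part of an endogenous retrovirus in an intron of Camk1d (chr2:5555973-5561000), read on the plus strand, against the gene, with a log2 fold change of 1.86 and an FDR of 2e-05. The adjoining RLTR10C and MMERVK10C-int rows on the plus strand had positive log2 fold changes too, from 0.738 to 3.9. None of them was called (authors' FDR 0.22 to 0.9). Whether the reads came from this copy of the element was not tested. Camk1d, on the minus strand, had 1 count over the Trp53_KO group.

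Around the limits of the rule the genes shade into others. Just inside by the Trp53_KO limit were Bace2, Ociad2 and Myh15, each with 3 counts over Trp53_KO, and just inside by the Trp53_WT limit were Mctp2 and Gpr63. Just outside, Zcchc24 had 4 counts over Trp53_KO and 167 over Trp53_WT, Ptpru, a receptor tyrosine phosphatase gene, 5 and 156, and RP23-359F12.1, known only by its clone name, 5 and 885. Bnc1, left out by name, had 4 counts over Trp53_KO and 2089 over Trp53_WT. Eid2 had none over Trp53_KO and 57 over Trp53_WT.

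Most of the other marker lists held both genes that rose and genes that fell, and no list but the p53 list held a member. Of 20 tested ovarian surface and mesothelial genes, 12 rose and 5 fell, of 23 epithelial adhesion genes 7 rose and 8 fell, and of 22 transcription factors of mesoderm and gonad 12 rose and 6 fell. Of 7 fibroblast genes 4 rose and 2 fell, of 7 granulosa and theca genes 5 rose and 0 fell, of 6 smooth muscle genes 3 rose and 1 fell, and of 5 endothelial genes 2 rose and 2 fell. Of 2 tested genes each, the neuronal list had 1 that rose, and the germline and immune lists 1 each that fell. Beside these stand 14.1% of all tested genes that rose and 16.1% that fell. Their part in the loss of the 25 genes was not tested.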

How the data were processed

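Per the labels' protocols, stranded libraries were made from total RNA of 6 ID8 samples, 3 labelled Trp53_KO and 3 Trp53_WT. The submitters' processing notes name the build mm10 and the tools STAR, featureCounts and edgeR, without versions; settings and annotation release were not given there. Counts per gene symbol were deposited by the authors as whole numbers, not normalized, and no row lacks a gene name. They also deposited a table of repeats with a fold change and an FDR, an adjusted p-value, for the single comparison. Its base is not stated. The authors' deposited log2 values were checked on 540 exonic or 3' untranslated rows, where the median ratio to the gene's own log2 fold change was 1.03; natural logarithms would give 0.693.

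Of 41327 genes, 18744 had no count and 13651 passed filterByExpr. Counts were fitted with edgeR 4.0.16 in R 4.3.3 (TMM, quasi-likelihood, genotype as the only term), with Benjamini-Hochberg adjustment over all tested genes and a threshold of 0.05. Ratios with 1 to 3 Trp53_KO counts carry exact binomial 95% intervals, and genes at 0 a bound from a floor of 3 counts over the group (scipy 1.17.1). Positions and exon lengths are from GENCODE M21, and promoters from RefSeq on GRCm38.p6. The scripts were tested on simulated counts.

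The genes, and the lists of markers and p53 targets, were chosen with earlier results of these data known. Named were the 20 members with the highest Trp53_WT sum, members in a list or with a role as regulator, ligand, receptor, channel or transporter, genes just inside and outside the limits, up to 4 genes of a list by adjusted p, and up to 8 called neighbours. A member of the 25 and its family, and another relative, are not reported here; the member still counts in the totals over the 25. The other members and the family relatives were named after their values were seen. Replicate numbers did not pair the libraries: deviations of same-numbered libraries correlated at -0.0532, 0.077 and -0.122. Alternatives were other size factors, no filter, DESeq2 1.42.0, a replicate block, omission of each library, other windows and other limits of the rule.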

Additional observations from a re-analysis of the deposited data

How the results depend on the processing

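The count of switched-off genes depended on the limits: 16 genes at 0 over Trp53_KO, 36 at 6 or fewer, 14 with at least 120 counts over Trp53_WT and 40 with at least 40. Scaling the counts first gave the same 25 genes, and leaving out 1 library at a time gave 24 to 30, 23 to 25 of them shared. Bace2 was lost without Trp53_KO replicate 2, Gpr63 and Mctp2 without Trp53_WT replicate 1, and Gpr63 and Nfkbid without Trp53_WT replicate 3. Lower neighbours numbered 3 of 17 within 50 kb and 26 of 221 within 500 kb, against 6 of 38 within 100 kb, as the windows hold fewer and more genes. Higher neighbours numbered 0 with DESeq2 and 32 within 500 kb (14.5% of 221), against 1 (2.63% of 38), and 0 to 1 without single libraries. With the replicate number as a block there were 0 higher neighbours, and 3806 genes were called over the whole table, against 4130 without it; the replicates share only a number. Without single libraries the calls ranged from 2977 to 4984, the neuronal list from 1 to 2 called genes and the germline list from 1 to 2, which reached 2 without Trp53_WT replicate 1. Without the filter 4786 genes were called, and DESeq2 called 3767. Over 122 genes that are no members, 1220 refits kept the call in 1157 cases, lost it in 38, gained it in 25 and reversed a called direction in 0. Depth limits the lowest members, whose bounds reach only about 20.5-fold.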
